A study of Mus musculus with 24 samples.

Results

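The genes described here are 47 interferon-stimulated genes, chosen by symbol from the 24447 genes of a single-cell RNA-seq count matrix. All 47 had at least 1 UMI (unique molecular identifier, a tag that lets each captured transcript be counted once). The cells were NK1.1+CD3e+ cells from the liver, a gate that takes T cells carrying a natural killer cell receptor and is used to collect NKT cells. The members were followed over 1735 cells in 3 genotypes: 623 WT, 725 Jα18-deficient and 387 CD1d-deficient cells.

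All mice were C57BL/6, 8–10 weeks old and untreated. The Jα18 deletion removes a T cell receptor segment without which the type I population does not form. The CD1d deletion removes the lipid-presenting molecule on which both the type I and the type II population depend. WT mice were purchased and the mutants came from another laboratory, so genotype and source of the mice cannot be told apart. Cells were sorted and picked by hand. Of the 24 libraries in the labels, 8 per genotype, none is named in the cell columns, so each genotype was 1 pool of cells. No test between genotypes was possible, and the intervals given cover counting error only.

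Interferons act through cell-surface receptors and Janus kinases. Type I interferons act through a complex that contains STAT2 and IRF9 and binds the interferon-stimulated response element (ISRE), whereas interferon γ acts mainly at the gamma-activated site (GAS). The induced proteins restrict viral replication, sense foreign nucleic acid, disrupt the vacuoles of intracellular pathogens, and trim and transport peptides for MHC class I. NKT cells are a well-known early source of interferon γ and can themselves respond to interferons.

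The cells carried the transcripts of their gate. A Cd3d UMI was found in 96.9–99.3% of cells of each pool and a Klrb1c UMI (the gene of NK1.1) in 92.0–95.6%. Cd1d1 had 854 UMIs in WT, 934 in Jα18-deficient and 0 in CD1d-deficient cells. Depth was lowest in the CD1d-deficient pool, with a median of 13508 UMIs per cell against 40467 in WT and 46670 in Jα18-deficient cells. Lyz2, a myeloid gene, was also highest there, at 588 CPM (UMIs per 1000000 UMIs of the pool) against 77.3 and 14.7 CPM. Its part in the results below was not tested.

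The promoters are shown first, searched for the letters of both elements. RefSeq promoters (build GRCm38.p6) were at hand for 37 of the 47 members, and the 250 bases before each start were searched on both strands. The ISRE letters, GAAA and again GAAA with 2 bases of any kind between them, were found in 17 of the 37, or 45.9%, against 3.46% of all 27025 genes with a promoter. The GAS letters, TTC and GAA with 3 bases of any kind between them, were found in 10 of the 37, or 27.0%, against 8.13% of all genes. Both stood in 5 members and neither in 15, and in 1 member promoter the matches shared bases. Of the groups by role, the interferon-inducible GTPases held the ISRE letters in 6 of 7 genes and the antigen processing genes in 0 of 3. A match is a run of letters, not a shown binding site.

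The stretches below are from members that the results turn on. Each was placed by exact match in NCBIM37 (mm9), the build of the study, lies upstream of its gene in the annotation of that build, and is written 5′ to 3′ on the strand of the gene, with the ISRE letters in capitals, except for Irf1, where the GAS letters are. Isg15 had 3 overlapping ISRE matches, Ifit1 and Ifit3 had 2 each and Bst2 had 2 that overlap. The promoters of Bst2, Igtp and Irgm2 also hold the GAS letters, left in lower case here except where Bst2 shares bases with an ISRE match.
Isg15 (chr4:155574964-155575025, minus strand): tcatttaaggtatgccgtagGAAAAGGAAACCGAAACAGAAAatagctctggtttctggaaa
Ifit1 (chr19:34715255-34715323, plus strand): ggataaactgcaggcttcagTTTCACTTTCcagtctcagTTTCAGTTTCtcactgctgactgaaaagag
Ifit3 (chr19:34657843-34657926, plus strand): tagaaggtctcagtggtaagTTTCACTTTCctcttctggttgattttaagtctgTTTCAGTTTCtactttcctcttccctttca
Cxcl10 (chr5:92778099-92778148, minus strand): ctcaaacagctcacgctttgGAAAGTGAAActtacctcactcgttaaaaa
Rsad2 (chr12:27141408-27141457, minus strand): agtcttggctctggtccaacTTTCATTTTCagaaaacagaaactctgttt
Bst2 (chr8:74061466-74061521, minus strand): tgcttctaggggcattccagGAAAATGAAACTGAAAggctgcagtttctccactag
Igtp (chr11:58013004-58013053, plus strand): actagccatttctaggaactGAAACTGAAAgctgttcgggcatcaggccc
Irgm2 (chr11:58028395-58028444, plus strand): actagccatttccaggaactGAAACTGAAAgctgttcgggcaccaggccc
Irf1 (chr11:53583406-53583454, plus strand): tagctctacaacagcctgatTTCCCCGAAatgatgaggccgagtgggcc
The Igtp and Irgm2 stretches, from neighbouring genes of the same family, were identical at 48 of 50 bases.

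The members together made up 0.536% of UMIs in WT, 0.424% in Jα18-deficient and 0.464% in CD1d-deficient cells. A few were read in most cells, many in a minority, and some almost only in single cells. Psmb8 and Ifi47 alone held 41.6% of all member UMIs. Of the 47 members, 8 had a UMI in over 50% of all cells and 17 in under 10%. UMI counts number molecules, so levels were compared between genes as CPM without scaling to length.

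**Figure D1:**
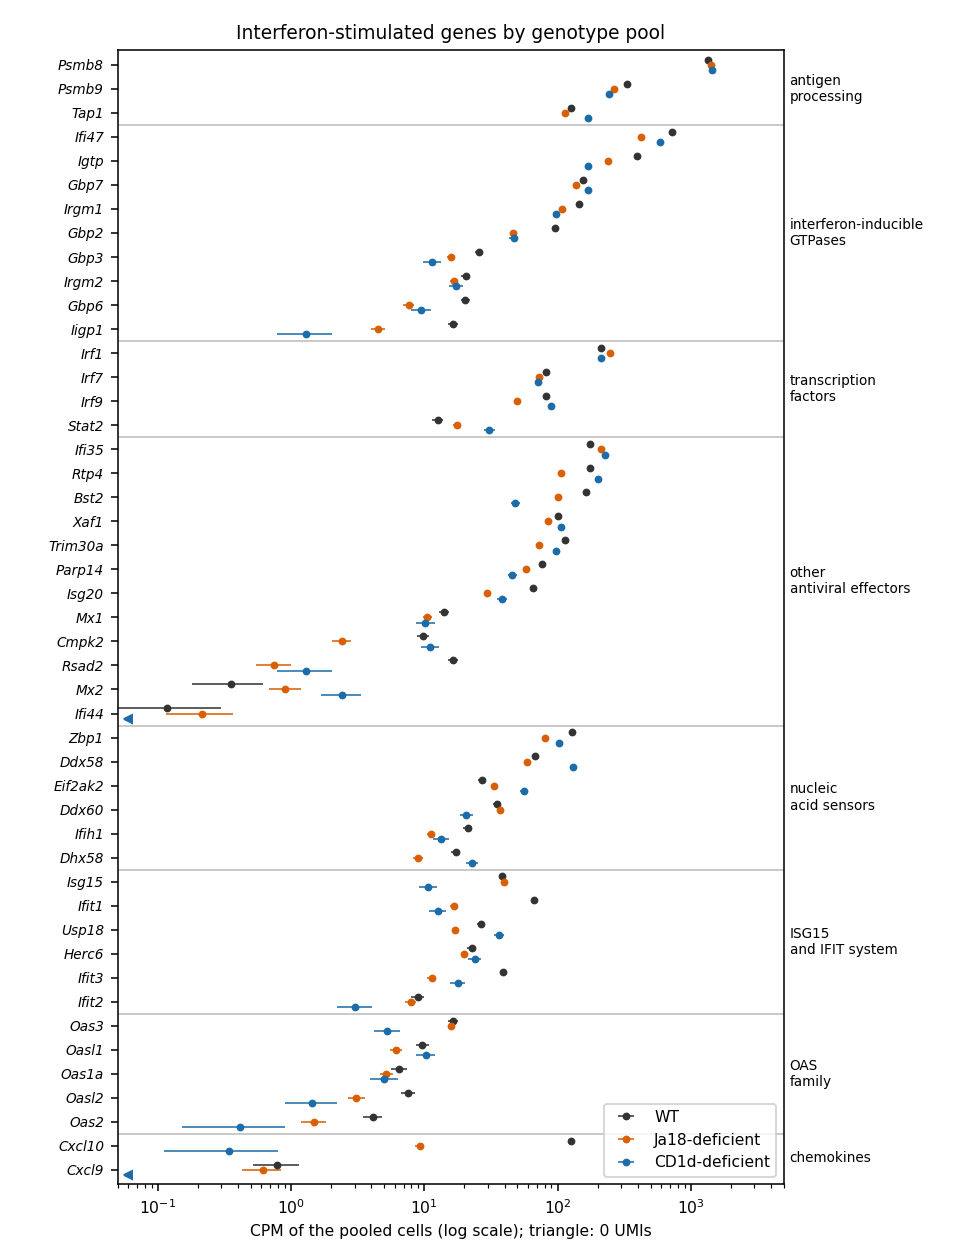
Level of each of the 47 members, as CPM of the summed cells on a log scale, in the WT, Jα18-deficient (Ja18-deficient in the plot) and CD1d-deficient pools, grouped by role. Points are pool values, bars are exact Poisson 95% intervals that cover counting error only, and triangles mark 0 UMIs; Psmb8 lies highest in every pool, at 1339–1447 CPM, and Ifi44 below 1 CPM.

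Antigen processing genes were the most evenly spread. Psmb8, an immunoproteasome subunit, was at 1339 CPM in WT, 1405 in Jα18-deficient and 1447 in CD1d-deficient cells, and 96.8% or more of the cells of every pool had a UMI. Its top cell held 1.40% of its UMIs. Psmb9, another immunoproteasome subunit, was at 333, 263 and 242 CPM in the same order. Tap1, part of the transporter that moves peptides into the endoplasmic reticulum, was at 127, 113 and 170 CPM. The 3 genes lie next to each other on chromosome 17, between 34318933 and 34338399, and gave 38.7% of member UMIs.

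The interferon-inducible GTPases, which act on the vacuoles of intracellular pathogens, gave 25.9% of member UMIs. Ifi47 was at 721 CPM in WT, 424 in Jα18-deficient and 592 in CD1d-deficient cells. Igtp was at 392, 241 and 169 CPM, and its share of cells with a UMI was 74.8%, 71.7% and 41.1%. Cells with at least 10000 UMIs, 523, 632 and 227 in the same order, were also thinned to 10000 UMIs. In these cells that share was 60.8%, 51.1% and 32.6%. Irgm1 was at 144, 109 and 97.5 CPM and Gbp7 at 155, 137 and 169 CPM. Gbp2 was at 95.2, 46.7 and 46.9 CPM. Gbp3, Irgm2, Gbp6 and Iigp1 stayed between 1.31 and 25.5 CPM in all pools. These GTPases have close paralogues, as do Ifit3, Oas1a and Trim30a, and how reads shared between copies were counted is not given in the sources used here, so their levels are uncertain.

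The transcription factors of the list are themselves induced and drive further induction. Irf1 was at 213 CPM in WT, 249 in Jα18-deficient and 211 in CD1d-deficient cells and was read in 63.0–72.8% of cells. Irf7 was at 82.5, 72.2 and 71.8 CPM and Irf9, the DNA-binding part of the type I complex, at 82.0, 49.6 and 89.3 CPM. Stat2 was lower, at 12.7, 17.5 and 30.8 CPM, and a single CD1d-deficient cell held 62.7% of the Stat2 UMIs of its pool.

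Among the other antiviral effectors, Ifi35 (175, 213 and 227 CPM), Rtp4 (176, 107 and 202 CPM), Xaf1 (100, 85.1 and 105 CPM) and Trim30a (114, 72.6 and 97.1 CPM) were read in up to 68.0% of the cells of a pool. Bst2, which encodes tetherin, a protein that holds budding virus at the cell surface, was at 164 CPM in WT, 101 in Jα18-deficient and 48.2 in CD1d-deficient cells. Parp14 was at 76.0, 58.1 and 45.9 CPM, and Isg20, an RNA exonuclease, at 65.0, 29.6 and 38.2 CPM. A single CD1d-deficient cell held 45.2% of the Isg20 UMIs of its pool. Mx1, Cmpk2, Rsad2, Mx2 and Ifi44 stayed below 20 CPM in every pool. Rsad2, which encodes the antiviral enzyme viperin, had 560 UMIs in WT, 45 in Jα18-deficient and 19 in CD1d-deficient cells, and 1 WT cell held 301 of them.

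The nucleic acid sensors gave 5.75% of member UMIs. Zbp1, a sensor of Z-form nucleic acid, was at 128, 81.1 and 102 CPM in WT, Jα18-deficient and CD1d-deficient cells. Ddx58, which encodes RIG-I, was at 68.1, 59.2 and 131 CPM, and 1 CD1d-deficient cell gave 29.4% of the UMIs of its pool. Eif2ak2, the kinase PKR, was at 27.0, 33.2 and 56.3 CPM. Its top cell gave 40.9% of the UMIs of the Jα18-deficient and 21.7% of those of the CD1d-deficient pool. Ddx60 was at 34.8, 37.1 and 20.7 CPM, while Dhx58 and Ifih1 stayed between 8.94 and 22.8 CPM.

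The ISG15 and IFIT system, the classical readout of type I interferon, was sparse. Isg15, a ubiquitin-like modifier, was at 38.5 CPM in WT, 39.7 in Jα18-deficient and 10.7 in CD1d-deficient cells and was read in 19.3%, 21.0% and 8.27% of cells. Ifit1 was at 66.5, 16.6 and 12.7 CPM, read in 11.4%, 9.38% and 5.94% of cells. The top cell of each pool held 27.6%, 37.3% and 29.9% of its Ifit1 UMIs. Ifit3 was at 39.0, 11.3 and 17.8 CPM, Usp18, which removes ISG15 from proteins, at 26.7, 17.1 and 36.1 CPM, Herc6 at 22.6, 19.9 and 23.9 CPM and Ifit2 at 8.91, 7.90 and 3.03 CPM. The OAS family, which makes the activator of RNase L, was also sparse: Oas3 was at 16.5, 15.99 and 5.30 CPM and Oas1a at 6.45, 5.18 and 5.02 CPM. Oasl1, Oasl2 and Oas2 stayed between 0.413 and 10.3 CPM.

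The chemokines were the most uneven. Cxcl10 was at 126 CPM in WT, 9.23 in Jα18-deficient and 0.344 in CD1d-deficient cells, but 1 WT cell held 3751 of the 4303 WT UMIs. Without that cell the WT level was 16.2 CPM. Of the 92 WT cells with a Cxcl10 UMI, 75 had 1–3 UMIs and 10 had over 9. Cxcl9 had 27, 37 and 0 UMIs in WT, Jα18-deficient and CD1d-deficient cells. The count of 0 in the CD1d-deficient pool has an exact Poisson upper limit of 0.254 CPM.

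The genotypes were set side by side as ratios of CPM, with no test, and both mutants were set against the same WT pool. The pools also differed in their mix of cells. Cells with at least 3 UMIs of Cd8a or of Ly49 (Klra) genes were 137 of the 623 WT cells. They were 559 of the 725 Jα18-deficient and 313 of the 387 CD1d-deficient cells. Genotype and mix of cells cannot be told apart in these ratios. A gene entered if the compared pools held 100 or more of its UMIs together and 20% or more of the cells of either pool had a UMI, and a log2 ratio of at least 1 in size was counted. In the Jα18-deficient pool, 20 members entered: 0 were counted higher, where 5.38% of the 4575 genes were, and 1 was counted lower, where 0.809% were. That member was Gbp2, at a log2 ratio of -1.03, and 0 were counted lower without the very high cells described below. The median log2 ratio was -0.36 over these members and 0.13 over all genes that entered. In the CD1d-deficient pool, 19 members entered: 0 were counted higher, against 5.37% of 3630 genes, and 3 were counted lower, against 3.25%. These were Bst2 (log2 ratio -1.77), Igtp (-1.21) and Gbp2 (-1.02). The medians were -0.20 and 0.02, but the member median was 0.06 with the mean of per-cell CPM and 0.07 with cells thinned to 10000 UMIs, above the 0.02 of all genes in both. Without the very high cells only Bst2 remained past the fold on the lower side, at -1.69, Igtp was at -0.96 and Gbp2 at -0.65, and Ddx58 was counted higher at 1.13. The Ddx58 ratio was 0.95 with all cells, 0.39 with the mean of per-cell CPM and 0.56 with thinned cells. The 1 cell with 29.4% of the Ddx58 UMIs of the CD1d-deficient pool was not among the very high cells.

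Of the members that entered, 16 lay below and 4 above a log2 ratio of 0 in Jα18-deficient cells, and 11 below and 8 above in CD1d-deficient cells. The Psmb8 ratio to WT was 0.07 in Jα18-deficient and 0.11 in CD1d-deficient cells on the log2 scale, and that of Irf1 was 0.22 and -0.01. Ifi47, read in most cells as well, had ratios of -0.76 and -0.28. Of the 47 members, 27 had their highest CPM in WT, 4 in Jα18-deficient and 16 in CD1d-deficient cells. Neither this count nor that of the signs was made over all genes, so neither is a result about the members. The 27 include sparse members such as Cxcl10 and Rsad2, of whose WT UMIs 1 cell held 87.2% and 53.8%. Beside the members, Ifng, the gene of interferon γ, was at 120, 115 and 110 CPM. Of 25 other interferon-stimulated genes outside the list, 20 entered against Jα18-deficient cells and 19 against CD1d-deficient cells, with 1 counted higher and 1 lower in each.

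The module was then followed cell by cell as member UMIs per 10000 UMIs of the cell. The median was 41.9 in WT, 35.7 in Jα18-deficient and 40.4 in CD1d-deficient cells, and the middle 50% of cells lay at 31.7–56.5, 26.3–46.7 and 28.2–58.1. These ranges overlapped. The upper ends differed more: the highest cell was at 655 in WT, 272 in Jα18-deficient and 193 in CD1d-deficient cells. Members with a UMI numbered 12, 12 and 9 in the median cell, the last in the pool of lowest depth. A core of 23 members of the type I response had medians of only 3.53, 2.49 and 4.76 per 10000 UMIs, and 194 of all cells had none of them.

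**Figure D2:**
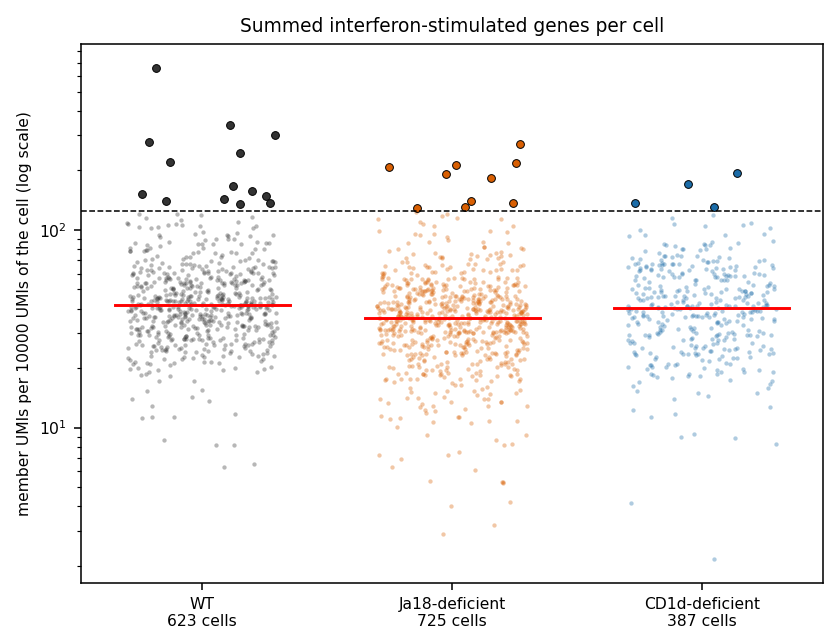
Member UMIs per 10000 UMIs of each cell, on a log scale, in 623 WT, 725 Jα18-deficient and 387 CD1d-deficient cells. Each point is a cell, red lines are medians (41.9, 35.7 and 40.4), the dashed line is the limit of 124.5 and outlined points are the 28 cells above it.

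Cells above 124.5 per 10000 UMIs, the third quartile plus 3 interquartile ranges over all cells, were called very high. There were 28: 14 WT cells, or 2.25% (exact Clopper-Pearson 95% interval 1.23–3.74%), 10 Jα18-deficient cells, or 1.38% (0.663–2.52%), and 4 CD1d-deficient cells, or 1.03% (0.282–2.62%). The 3 intervals overlapped. The lowest very high cell was at 129.1 and the highest of the other cells at 123.2, so the tail had no gap at the limit. Thinned to 10000 UMIs, with 353 shallower cells left out, the shares were 1.53%, 0.949% and 1.76%, with CD1d-deficient cells the highest. Of the 28 cells, 6 had under 10000 UMIs, below the depth filter that the methods state.

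These cells carried T cell transcripts: all 28 had a CD3 UMI and 26 had a Klrb1c UMI. Of other T and NK genes followed, Tbx21 was at 180 CPM in the very high and 196 in the other cells. Zbtb16 was lower in the very high cells, at 6.71 against 29.6 CPM, and was read in 3.57% against 14.2% of cells. For markers of other cell types, only genes with at least 100 UMIs were summed, by their mean per-cell CPM. The 5 of 9 myeloid markers that reached this summed to 94.5 CPM in the very high and to 250 CPM in the other cells. Of 4 B cell markers only 1, Cd79b, reached it, at 0.306 and 12.3 CPM. Of 3 plasmacytoid dendritic markers 2 reached it and summed to 36.7 and 56.5 CPM. These were Ccr9, at 26.6 and 50 CPM, and Tcf4, at 10.1 and 6.46 CPM. The median depth of the very high cells was 40240 UMIs against 36320 in the other cells. Many members were detected in most of them: 21 had a UMI in at least 20 members and the median was 26.5 members against 11 in the other cells. Choosing cells by the summed members favours such counts, so they describe the cells and are no finding about the members. The 4 CD1d-deficient cells were narrower, with a median of 14.5 members against 9 in the other cells of their pool, at a median depth of 35810 against 13410 UMIs. In 2 cells a single member gave over 50% of member UMIs, Ifi47 in Jα18-deficient cell 553 with 80 of 113 and Igtp in WT cell 169 with 168 of 266.

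WT cell 84 stood highest, at 655 per 10000 UMIs with 42 of the 47 members detected. Of its 9060 member UMIs, 3751 were Cxcl10, 392 Isg20, 351 Ifit3, 309 Ifit1, 303 Bst2 and 221 Isg15. It also had 227 Ifng UMIs, 302 CD3 UMIs and 0 Lyz2 UMIs. WT cell 76 followed at 339 with 37 members and no Cxcl10 lead: Psmb8 gave 164 and Bst2 125 of its 1131 member UMIs. WT cell 650 was at 303, led by Ifi47 (365 UMIs) and Isg20 (346), and WT cell 338 at 279, led by Ifit3 (216 UMIs). The highest Jα18-deficient cell, cell 415, was at 272 and again led by Cxcl10 with 75 of 365 member UMIs. The highest CD1d-deficient cell, cell 92, was at 193 and led by Isg20 with 251 of 951.

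The very high cells did not share a single profile. In the 4 highest WT cells the type I core gave 26.6–43.7% of member UMIs. In WT cells 497 and 542, at 157 and 152 per 10000 UMIs, it gave 5.85% and 5.98%, and the GTPases led instead, with 735 Ifi47 and 442 Igtp UMIs in cell 497 and 1018 Igtp, 798 Ifi47 and 478 Gbp2 UMIs in cell 542. Jα18-deficient cell 230 was alike, at 8.40% core and led by 757 Ifi47 UMIs. CD1d-deficient cells 476 and 464 were led by Rtp4, with 50 and 123 UMIs. These cells were picked for naming after their values were seen.

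**Figure D3:**
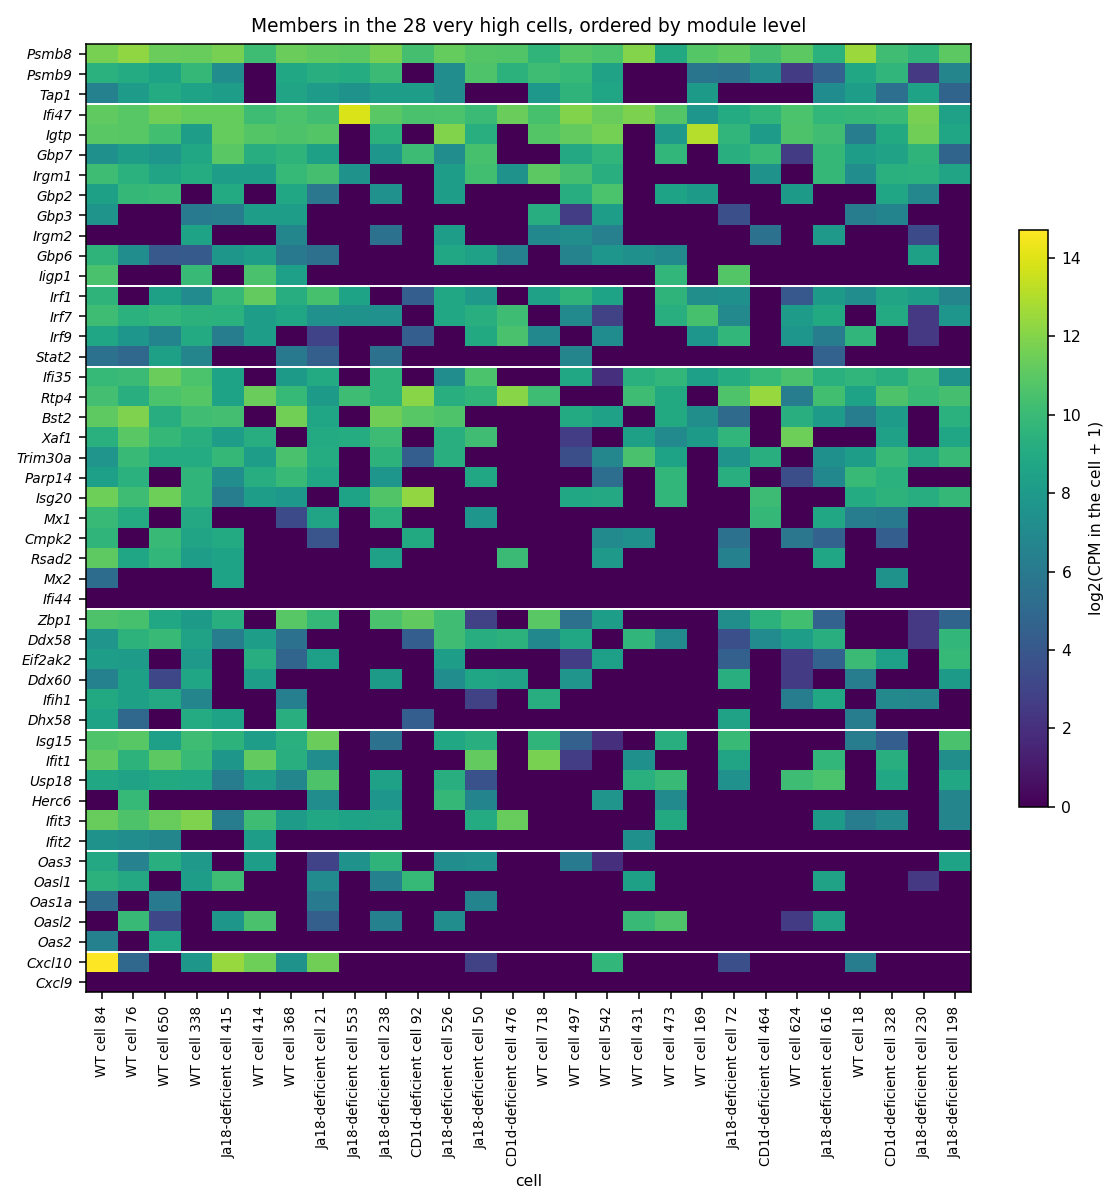
log2(CPM in the cell + 1) of the 47 members (vertical axis, grouped by role) in the 28 very high cells, ordered from the highest module level at the left. Psmb8 and Ifi47 were read in all 28 cells, whereas ISG15, IFIT and OAS members fill mainly the cells at the left and Cxcl10 is brightest in WT cell 84.

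The very high cells held 1.93% of all UMIs but 8.65% of member UMIs, as their choice by member level requires. By role, they held 92.7% of chemokine UMIs, 29.7% of the ISG15 and IFIT system, 17.3% of the OAS family, 12.4% of the other effectors, 10.03% of the GTPases, 9.23% of the sensors, 4.83% of the transcription factors and 2.94% of antigen processing. For 5 members they held over 50% of all UMIs: Cxcl10 (94.0%), Rsad2 (91.0%), Iigp1 (54.5%), Cmpk2 (52.8%) and Ifit3 (52.1%). By pool this differed: without the very high cells Ifit3 was at 10.9 CPM in WT, 8.47 in Jα18-deficient and 15.6 in CD1d-deficient cells, and Iigp1 at 7.75, 1.91 and 1.32 CPM. Psmb8 was at the other end with 2.74%. Ifi44 and Cxcl9 had 0 UMIs in the very high cells.

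**Figure D4:**
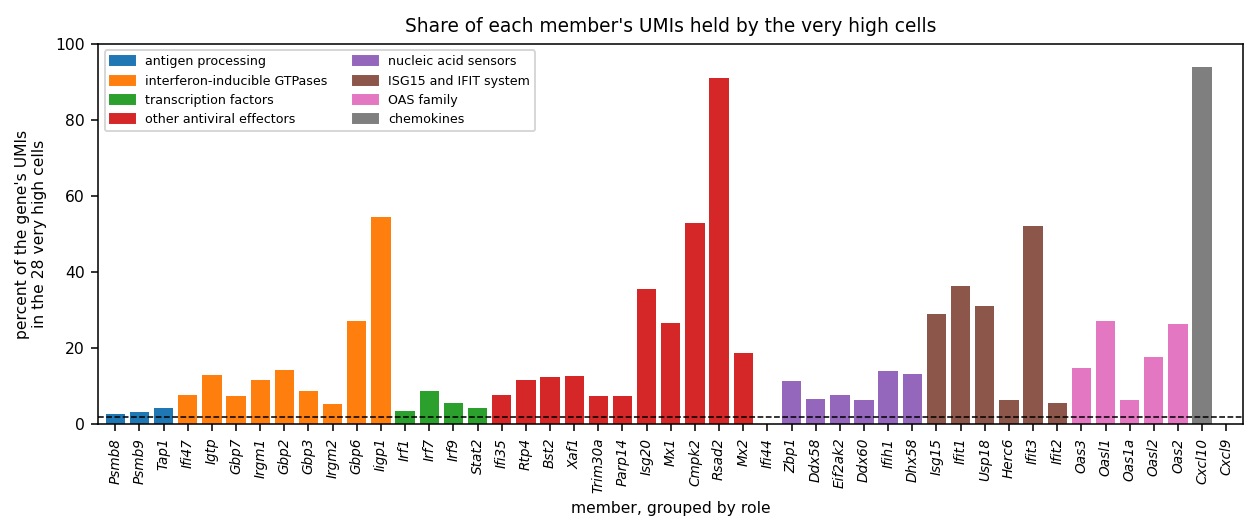
Percent of the UMIs of each member, over all 1735 cells, that lay in the 28 very high cells, with members on the horizontal axis coloured by role. The dashed line is the 1.93% that these cells held of all UMIs; Cxcl10 and Rsad2 stand above 90% and the 3 antigen processing genes below 5%.

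Genes outside the list, which did not enter the choice of the cells, were described in the same cells by their mean CPM. Of 23 other interferon-stimulated genes with at least 100 UMIs, 12 were higher in the very high cells than in the other cells of all 3 pools and 15 were at least 2-fold higher over all cells, with a median of 2.77-fold. Of all 10455 genes with at least 100 UMIs, 2.97% were higher in all 3 pools, 10.6% were at least 2-fold higher and the median was 0.685-fold. The members themselves, 29 of 45 higher in all 3 pools, chose the cells and are no finding here. As examples among the other interferon-stimulated genes, Gbp4 was at 683 CPM in the very high and 122 in the other cells and Ifi203 at 1120 and 333 CPM. Ifi27l2a was at 1530 and 405 CPM but higher in 2 of 3 pools, with 56.7 and 275.5 CPM in CD1d-deficient cells. Ifitm3, which blocks viral entry, was at 225 and 36.3 CPM. Parp9 was at 155 and 28.6 CPM.

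Among the receptor and signalling genes, Irf2, a factor that competes with IRF1, was higher in all 3 pools, at 288 against 87.9 CPM. Jak2 (118 and 27.0 CPM) and Socs1, an inhibitor of Janus kinases (623 and 211 CPM), were higher in 2 of 3 pools. Of the receptor genes, Ifnar1 was at 30.1 and 56.2 CPM and Ifngr1 at 260 and 629 CPM, each higher in 0 of 3 pools. Ifnar2 was at 105 and 138 CPM but higher in 2 of 3 pools. Ifngr2 was at 24.4 and 2.43 CPM and was read in 3.57% of the very high cells. Ifng was at 335 and 104 CPM but higher in 1 of 3 pools. Of the 7 dissociation and stress genes, 1 was higher in all 3 pools and the median was 0.673-fold. With 28 cells chosen on the module, these values describe the cells and carry no test.

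Members were also compared between cells gated on transcripts within each pool, a division made here and different from the surface markers by which the study sorted subsets. The counts of the gated cells were summed per pool, giving n = 3 pools of positive and of negative cells, and were fitted over all genes with edgeR's quasi-likelihood test with a term for pool. The pools are of different genotypes, so the test was of an average difference over genotypes. It did not require every pool to go the same way. Cells with at least 3 UMIs of Cd8a or of the 20 Ly49 (Klra) genes were positive in the first gate: 137 of the WT, 559 of the Jα18-deficient and 313 of the CD1d-deficient cells. Cells with at least 3 S1pr1 UMIs, the gene of a receptor for exit from tissue into blood, were positive in the second: 22, 49 and 22 cells. Gates set on UMIs favour deep cells, and the median depth was higher in the positive cells of all 3 pools in both gates.

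In the Cd8a or Ly49 gate 0 of 43 members tested passed at an adjusted p of 0.05 by edgeR, where 0.330% of 9992 genes were called higher and 0.0200% lower. At an unadjusted p under 0.05 there were 3 members, Irgm2, Igtp and Parp14, all with a negative difference, or 6.98% of members against 6.34% of all genes. DESeq2 called 1, Irgm2. The median log2 difference was -0.23 over the members and 0.03 over all genes, and 0.01 and 0.04 with thinned cells gated at 1 UMI. Irgm2 was at 15.3 CPM in positive and 22.0 in negative WT cells, 13.4 and 55.6 in Jα18-deficient cells, and 12.8 and 60.8 in CD1d-deficient cells. It was lower in positive cells of all 3 pools, by a log2 difference of -1.72 (SE 0.54, adjusted p = 0.424 by edgeR). With the cells thinned to 10000 UMIs and gated at 1 UMI that difference was -0.31. Igtp was at 277 and 428 CPM in WT, 242 and 227 in Jα18-deficient and 144 and 410 in CD1d-deficient cells, so that its direction was not shared. Psmb8 differed by -0.01 (SE 0.12). The marker sum of myeloid genes was higher in the positive cells of all 3 pools, at 98.3 and 95.5 CPM in WT, 62.6 and 18.0 in Jα18-deficient and 721 and 482 in CD1d-deficient cells, and its part was not tested. Of that list Itgax, which some activated T and NK cells also express, was higher in positive cells of all 3 pools. Lyz2, Cd68, Adgre1, C1qa and C1qb were higher in positive cells of 2 pools, and Csf1r and Clec4f of 1. Cd14, a defining monocyte gene, was higher in 0 and was at or below 0.732 CPM in every sum of that gate. Lyz2 was at 60.0 CPM in positive and 82.8 in negative WT cells, 14.8 and 13.5 in Jα18-deficient and 603.5 and 440.9 in CD1d-deficient cells.

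In the S1pr1 gate 0 of 44 members passed by edgeR, where 0.103% of 9721 genes were called higher and 0.103% lower. At an unadjusted p under 0.05 there were 5 members, Cxcl10, Isg20, Ifit1, Zbp1 and Ifit2, all with lower values in S1pr1 positive cells of all 3 pools, or 11.4% of members against 7.37% of all genes. Without the very high cells there were 2, and with cells thinned to 10000 UMIs there were 7. DESeq2 called 2, Cxcl10 and Isg20. The median log2 difference was -0.73 over the members and -0.30 over all genes. These medians were -0.47 and -0.33 without the very high cells, -0.22 and -0.15 with a gate of at least 1 UMI, and -0.55 and -0.17 with thinned cells. Isg20 was at 19.1 CPM in positive and 66.8 in negative WT cells, 1.22 and 32.6 in Jα18-deficient and 1.04 and 40.8 in CD1d-deficient cells, a log2 difference of -3.58 (SE 1.14, adjusted p = 0.269 by edgeR). Ifit1 was at 1.47 and 69.2, 4.52 and 17.9, and 1.04 and 13.5 CPM in the same order (log2 difference -3.41, SE 1.38, adjusted p = 0.496 by edgeR). Zbp1 was at 22.8 and 133, 52.7 and 84.1, and 41.5 and 107 CPM. Cxcl10 was at 4.41 and 131 CPM in WT, where WT cell 84 lay among the negative cells, and without the very high cells it had too few counts to be tested. The myeloid marker sum was at 115 CPM in positive and 95.4 in negative WT cells, 30.4 and 62.1 in Jα18-deficient cells, and 446 and 716 in CD1d-deficient cells, and its part was not tested.

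None of the S1pr1 positive cells was very high, 0 of 22 in WT, 0 of 49 in Jα18-deficient and 0 of 22 in CD1d-deficient cells. At these numbers the exact 95% intervals reach 15.4%, 7.25% and 15.4%, so that the 2.33%, 1.48% and 1.10% found in S1pr1 negative cells lay within them. Very high cells were 1.46% of Cd8a or Ly49 positive and 2.47% of negative WT cells, 1.25% and 1.81% in Jα18-deficient cells, and 1.28% and 0% in CD1d-deficient cells. All of these pairs had overlapping intervals.

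Ifi35 had higher values in positive cells of all 3 pools in both gates without passing the test. In the S1pr1 gate it was at 177 CPM in positive and 175 in negative WT cells, 274 and 207 in Jα18-deficient and 325 and 220 in CD1d-deficient cells (log2 difference 0.52, SE 0.32, adjusted p = 0.793 by edgeR). In the Cd8a or Ly49 gate the log2 difference was 0.43 (SE 0.22, adjusted p = 0.830 by edgeR). Of the pathway genes outside the list, 0 of 23 other interferon-stimulated genes were called by edgeR in either gate. At an unadjusted p under 0.05 there was 1 in the Cd8a or Ly49 gate and 2 in the S1pr1 gate.

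**Figure D5:**
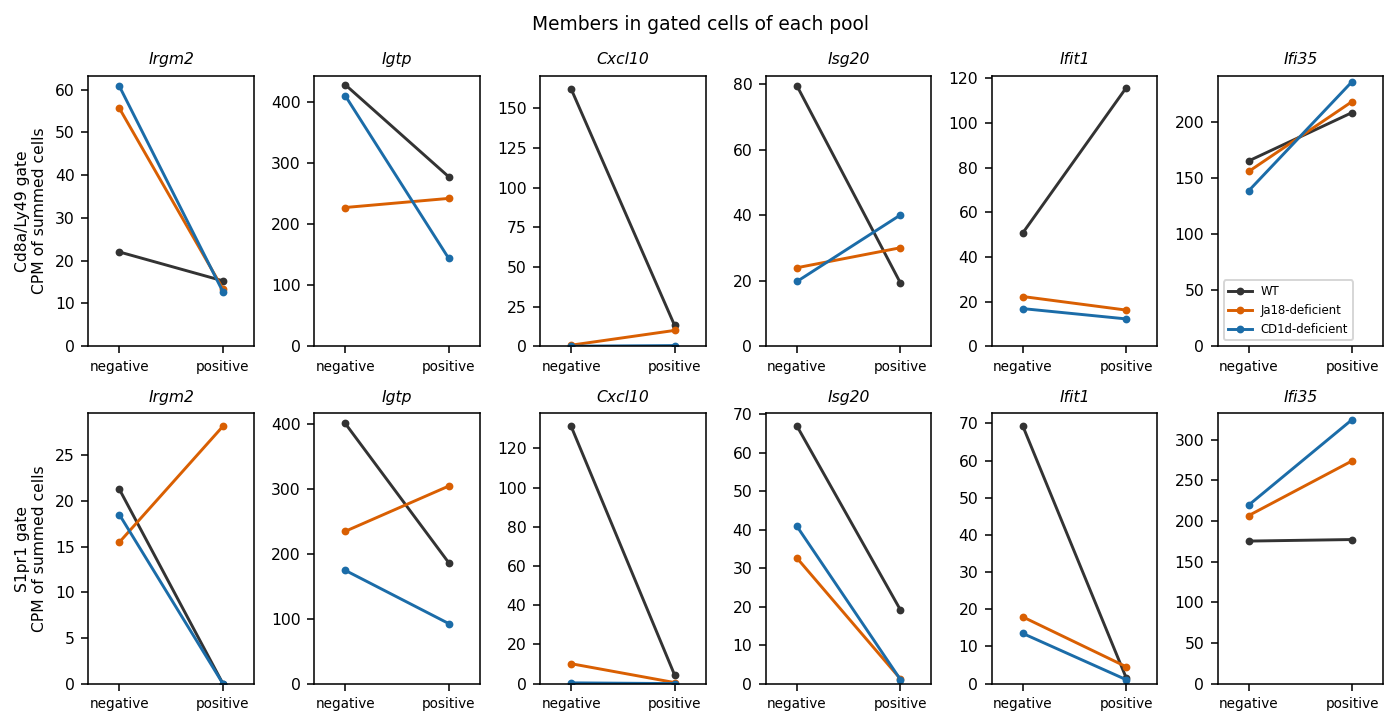
CPM of the summed cells on a linear axis from 0 for 6 members in gate-negative and gate-positive cells, with 1 line per pool, for the Cd8a or Ly49 gate (upper row) and the S1pr1 gate (lower row). Isg20, Ifit1 and Cxcl10 stand lower in S1pr1 positive than negative cells of each pool and Ifi35 higher in the positive cells of both gates, but no member passed the adjusted test by edgeR.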

How the data were processed

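Single NK1.1+CD3e+ liver cells were measured by RNA-seq with UMIs. The authors trimmed reads with Cutadapt v1.15, aligned them to the mm9 transcriptome with Tophat v2.0.12, removed duplicates by UMI and counted with HTSeq v0.10.0. The deposited values are whole-number UMI counts per gene and cell, without normalization. The matrix still held 353 cells outside the stated filter of over 500 genes and 10000–600000 transcripts, and they were kept. The column names carry no barcode, so barcodes shared between libraries could not be counted, and no doublet caller was run on these picked cells. The pools summed to 34102694 (WT), 60484252 (Jα18-deficient) and 14536585 (CD1d-deficient) UMIs.

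Sums were given as CPM with exact Poisson and shares with exact Clopper-Pearson 95% intervals. Very high cells lie over the third quartile plus 3 interquartile ranges. Gated sums were tested with edgeR 4.0.16 in R 4.3.3, from tables built in Python 3.11.15 (quasi-likelihood, TMM, filterByExpr, pool term, Benjamini-Hochberg over all genes), a procedure tested on simulated data. The simulated counts held no differences between pools and no single cells of very high counts. They therefore do not cover members that 1 cell dominates. The planned test between libraries was replaced by a description, since cells could not be assigned to libraries. DESeq2 1.42.0, other gates, filters, scalings and thinning, and leaving out each pool, were alternatives. Leaving out the very high cells, Cxcl10 or Psmb8, and the thinned gate at 1 UMI, were added after the data were seen. Members read in at least 10% of cells of a pool were given in full, save some low ones given by ranges. A gene of the signalling list is not reported here. The members, lists and rules were chosen with earlier results of these data known.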

Additional observations from a re-analysis of the deposited data

How the results depend on the processing

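No paired analysis was possible because the cell columns carry no library number and the labels' library numbers could not be tied to cells. Between genotypes, the 1 member counted lower in Jα18-deficient cells became 0 with the mean of per-cell CPM, with thinned cells and without the very high cells. In CD1d-deficient cells, leaving out the very high cells changed the counts from 0 to 1 higher and from 3 to 1 lower. The share of very high cells moved to 4.33% in WT and 3.88% in CD1d-deficient cells when only the 23 core members were summed, and 22 of the 60 cells so found were among the 28. The other settings for that share stayed within its counting interval; without Cxcl10 all 28 cells were found again. In the Cd8a or Ly49 gate DESeq2 called 1 member lower (Irgm2) and a gate of at least 1 UMI called 1 higher (Cxcl10). WT cell 84, with 3751 of the 4303 WT Cxcl10 UMIs, had 1 UMI of the gate genes. It was thus negative at the gate of 3 UMIs and positive at that of 1. Leaving out each pool gave 0 to 0 members called in either direction. In the S1pr1 gate DESeq2 called 2 lower (Cxcl10 and Isg20), and leaving out each pool gave 0 to 1 called lower, the latter Cxcl10 without the CD1d-deficient pool. Counts of all genes called ranged more widely: in the Cd8a or Ly49 gate 35 became 125 with DESeq2, 113 without a filter, 13 without the pool term, 23 with a gate of 10 UMIs, 81 without the WT pool and 85 without the CD1d-deficient pool, and in the S1pr1 gate 20 became 70 with DESeq2, 1 without the pool term and 2 with a gate of 1 UMI. The cause was not tested. Thin depth in the CD1d-deficient pool and few S1pr1 positive cells limit what the sparse members can show.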

Other observations

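Outside the list, the genes whose log2(CPM + 1) across cells was most like that of the summed members, by the lowest Pearson r of the 3 pools among 7861 genes, were Ly6a, B2m, Gm12250, Lgals3bp, Cyba, Slfn2, Lcp1, Ms4a4b, Trim12a and Slfn1. The coefficients were weak and are descriptions over 623, 725 and 387 cells that share library depth: Ly6a, which encodes Sca-1, had r of 0.15, 0.19 and 0.16 in WT, Jα18-deficient and CD1d-deficient cells, and B2m, the light chain of MHC class I, 0.21, 0.25 and 0.15. Among the members, r with the sum of the others stayed above 0.2 in all 3 pools for Rtp4 alone of the 40 members with a value, and above 0.3 for 0 of them.

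Breadth was also counted in cells thinned to 10000 UMIs, at a threshold chosen after the values were seen. At least 20 members were detected in 12 (2.29%) of the 523 thinned cells of the WT pool, 8 (1.27%) of the 632 of the Jα18-deficient pool and 1 (0.441%) of the 227 of the CD1d-deficient pool, with overlapping exact 95% intervals of 1.19–3.97%, 0.548–2.48% and 0.0111–2.43%. Of these cells, 7, 7 and 1 were among the very high cells.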
